A study of Mus musculus with 6 samples.

Results

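The mouse Hox genes encode homeodomain transcription factors and lie in 4 clusters, Hoxa, Hoxb, Hoxc and Hoxd. They were taken as every protein-coding RefSeq gene of the mm10 build whose symbol is Hoxa, Hoxb, Hoxc or Hoxd followed by a number, which gave 39 genes of 21887 protein-coding genes. Accessible intervals were then read within each gene span, within each whole cluster from its first to its last base, and within 100 kb to either side of it. ATAC-seq, in which a transposase cuts open DNA, had been run on mouse liver, with 3 libraries of the inbred strain C57BL/6J and 3 of 129S1/SvImJ. Every animal was a wild-type male on a high-fat diet, per the labels. The labels state no age, name the transposed material by an abbreviation they do not explain, and do not say whether replicates are separate animals. The deposited data were 1 list of 120905 interval positions that combined the libraries, with no value for a strain, a library or a signal. The strains could therefore not be compared here, the depth behind each interval is unknown, and every value below is a count of positions in the combined list.

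Along each cluster the genes stand in the order in which they act along the body axis. Genes of low number (paralog groups 1 to 3, anterior) pattern hindbrain and neck, those of groups 4 to 8 (central) the trunk, and those of groups 9 to 13 (posterior, related to fly Abdominal-B) the lumbar and tail region, the limbs and the urogenital tract. In cells outside the domain of a Hox gene, Polycomb complexes commonly keep its CpG-rich promoter compacted, while Trithorax complexes hold it open where it is active. In adult tissues part of this positional pattern is kept, mainly in mesenchymal cells. A bulk list of positions cannot say which liver cells carried an interval.

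Few of the Hox start sites listed carried an interval. RefSeq promoter windows of the mm10 build, 250 bases before to 50 bases after a start site, were matched for 22 of the 39 genes and held 24 start sites. An interval overlapped 5 of these 24 windows (20.8%, exact 95% interval 7.13 to 42.2), against 48.4% of 21263 protein-coding promoter windows. The table covered the clusters unevenly, with windows for 9 of 9 Hoxd genes and 9 of 11 Hoxa genes but 3 of 10 Hoxb genes and 1 of 9 Hoxc genes. An interval overlapped 4 of 10 windows in Hoxd, 1 of 10 in Hoxa, 0 of 3 in Hoxb and 0 of 1 in Hoxc, so Hoxb and Hoxc start sites were hardly sampled. The overlapped windows are shown because they are the Hox start sites that were accessible in this list, and Hoxa13 is added because its window held the most CpG of the Hox windows without an interval. Each is written 5′ to 3′ on the gene's strand, and capitals mark the bases inside an accessible interval.
Hoxa5, chr6:52204538-52204837, minus strand: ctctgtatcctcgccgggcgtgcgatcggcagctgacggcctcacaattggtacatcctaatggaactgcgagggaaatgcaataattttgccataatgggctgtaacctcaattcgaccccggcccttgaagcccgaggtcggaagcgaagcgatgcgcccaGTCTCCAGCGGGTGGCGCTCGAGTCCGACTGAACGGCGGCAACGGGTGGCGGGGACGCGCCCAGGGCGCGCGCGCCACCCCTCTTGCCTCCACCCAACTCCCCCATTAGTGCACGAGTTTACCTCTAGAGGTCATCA
Hoxd1, chr2:74762730-74763029, plus strand: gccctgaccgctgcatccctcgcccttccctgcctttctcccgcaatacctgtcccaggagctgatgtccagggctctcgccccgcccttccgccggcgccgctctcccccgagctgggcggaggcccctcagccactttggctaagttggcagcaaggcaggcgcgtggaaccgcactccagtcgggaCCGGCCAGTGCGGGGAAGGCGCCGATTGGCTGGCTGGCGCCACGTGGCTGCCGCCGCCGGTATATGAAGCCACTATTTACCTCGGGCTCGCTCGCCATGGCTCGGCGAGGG
Hoxd9, chr2:74697513-74697812, plus strand: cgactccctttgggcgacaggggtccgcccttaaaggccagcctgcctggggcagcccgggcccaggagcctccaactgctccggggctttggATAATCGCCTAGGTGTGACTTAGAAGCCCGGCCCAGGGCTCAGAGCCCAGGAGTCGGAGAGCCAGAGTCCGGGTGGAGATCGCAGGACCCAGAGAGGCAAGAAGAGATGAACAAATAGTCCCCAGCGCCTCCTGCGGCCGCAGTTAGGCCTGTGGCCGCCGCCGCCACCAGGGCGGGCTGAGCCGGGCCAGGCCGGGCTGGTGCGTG
Hoxd10, chr2:74691641-74691940, plus strand: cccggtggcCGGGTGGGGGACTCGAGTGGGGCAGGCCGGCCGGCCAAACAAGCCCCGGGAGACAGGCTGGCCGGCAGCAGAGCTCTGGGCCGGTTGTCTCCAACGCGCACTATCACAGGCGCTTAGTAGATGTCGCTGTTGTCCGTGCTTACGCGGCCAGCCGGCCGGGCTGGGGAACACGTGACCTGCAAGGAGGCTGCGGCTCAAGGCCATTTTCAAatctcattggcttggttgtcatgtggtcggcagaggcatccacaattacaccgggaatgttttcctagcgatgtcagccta
Hoxd11, chr2:74682073-74682372, plus strand: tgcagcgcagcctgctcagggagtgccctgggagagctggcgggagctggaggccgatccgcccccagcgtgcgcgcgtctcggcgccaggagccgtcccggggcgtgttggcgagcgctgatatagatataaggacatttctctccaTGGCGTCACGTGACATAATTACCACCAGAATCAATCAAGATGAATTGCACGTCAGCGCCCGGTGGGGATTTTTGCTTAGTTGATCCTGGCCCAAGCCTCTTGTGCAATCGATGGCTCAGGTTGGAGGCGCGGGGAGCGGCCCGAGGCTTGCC
Hoxa13, chr6:52260831-52261130, minus strand: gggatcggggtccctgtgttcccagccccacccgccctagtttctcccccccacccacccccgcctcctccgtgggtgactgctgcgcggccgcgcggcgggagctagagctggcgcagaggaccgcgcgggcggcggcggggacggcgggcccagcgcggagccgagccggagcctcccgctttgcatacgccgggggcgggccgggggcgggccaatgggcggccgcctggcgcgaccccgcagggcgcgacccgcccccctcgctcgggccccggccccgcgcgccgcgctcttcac

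Hoxa5, which acts in lung and neck development, was the only Hoxa gene of these, with 137 of its 300 promoter bases covered and an interval centre 13 bp past the start. Hoxd1 had 111 covered bases at the other edge of the Hoxd cluster, with the interval centred 83 bp past the start. Hoxd9 had 207 covered bases and an interval centred 22 bp before the start. Hoxd10 had 210, and its interval was centred 137 bp before the start. Of the 2 start sites listed for Hoxd11, a gene of the forearm and kidney, the downstream one had 152 covered bases and a centre at 25 bp, whereas the upstream one had no overlap and its nearest interval centre lay 2790 bp downstream. Over the 24 start sites the nearest interval centre lay at a median of 3153 bp, from 13 bp at Hoxa5 to 54044 bp at Hoxb1. It was within 1000 bp at 7 start sites and farther than 5 kb at 6.

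The Hox promoter windows listed, mostly of Hoxa and Hoxd, were CpG-rich at about the share of other promoters, and 4 of the 11 CpG-rich ones had an interval. A window was called CpG-rich when its GC content was at least 50% and its observed over expected CpG at least 0.6. This held for 11 of the 24 Hox windows (45.8%), against 45.1% of the protein-coding windows. Among CpG-rich windows 4 of 11 Hox promoters had an interval (36.4%, exact 95% interval 10.9 to 69.2), against 77.6% of 9600. The Hoxa13 window is the plainest case, with 45 CpG and 81% GC and its nearest interval centred 3745 bp from the start. The other CpG-rich windows without an overlap were those of Hoxd13 (37 CpG), Hoxa6 (26 CpG), the downstream start of Hoxa10 (21 CpG), Hoxd3 and Hoxa3 (20 CpG each) and Hoxa11 (15 CpG). Hoxd9, with a ratio of 0.573, was the 1 overlapped Hox promoter below the CpG-rich limit. The 5 of 24 Hox promoters with an interval compare with 13.5 of 24, which is what the shares of all protein-coding promoters in the same bins of CpG ratio add up to.

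Other developmental homeobox genes outside the Hox clusters (Dlx, Lhx, Pax, Irx and related families, 40 listed) were set beside them. Of their promoter windows 22 of 29 were CpG-rich (75.9%), a larger share than in the Hox windows. Their CpG-rich promoters had an interval in 6 of 22 cases (27.3%, 10.7 to 50.2), and the interval of this share contains the Hox share. For Polycomb group genes 19 of 23 windows were CpG-rich (82.6%), and 14 of these 19 had an interval (73.7%, 48.8 to 90.9).

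**Figure D1:**
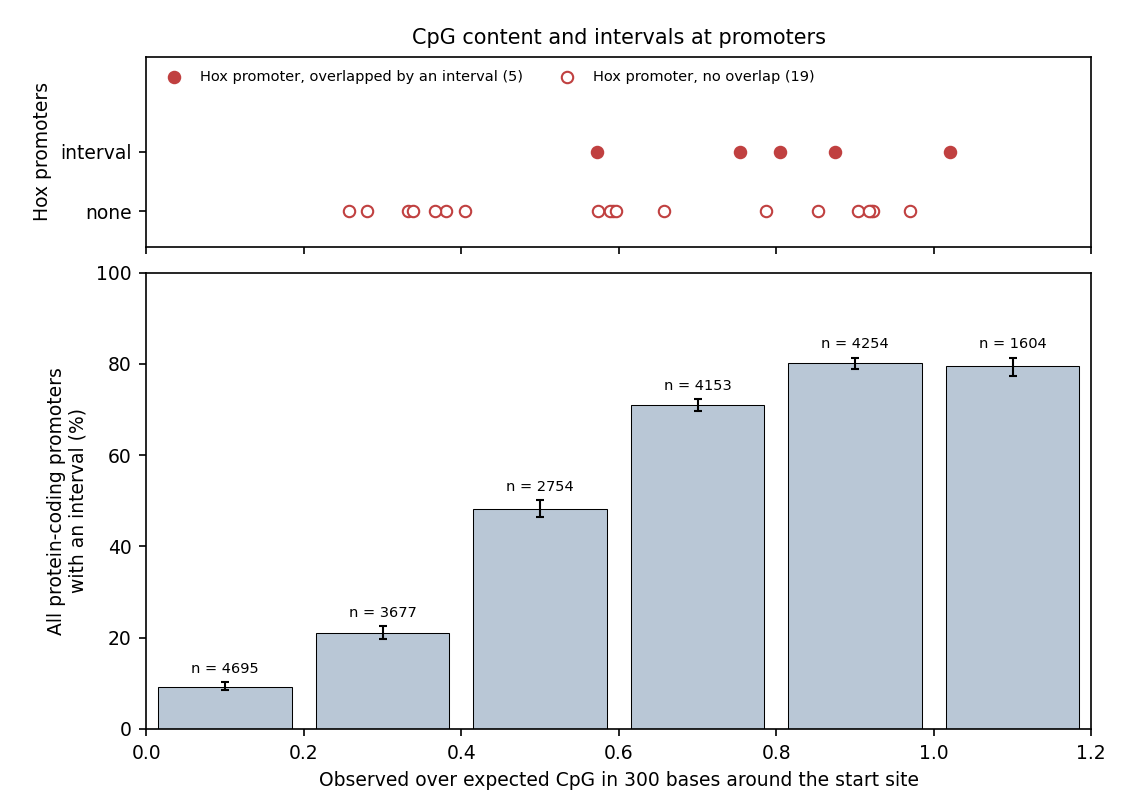
Upper panel, the 24 Hox promoter windows by observed over expected CpG, filled where an interval overlapped (5) and open where none did (19). Lower panel, the share of all protein-coding promoter windows with an interval per bin of the same ratio, with exact 95% intervals. In the bin from 0.8 to 1, 2 of 8 Hox promoters had an interval, against 80.2% of all.

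Short motifs were searched in the promoter windows on both strands as a description of the letters. The E-box CACGTG, the site of many basic helix-loop-helix factors, was found in 5 of 24 Hox windows (20.8%), against 7.84% of protein-coding windows. It stood in 3 of the 5 overlapped Hox windows, at 96 bases before the start of Hoxd11, 73 before that of Hoxd10 and 21 before that of Hoxd1, inside the capitals each time. Among CpG-rich protein-coding windows with an interval, 11% held it. The Hoxd9 window, among the 5, was not CpG-rich. CCAAT was found in 15 Hox windows (62.5%), against 38.2% of protein-coding windows, the GC box GGGCGG in 10 (41.7%), against 46.2%, and TATAAA in 4 (16.7%), against 12.6%. The HOX-PBX site TGATTNAT was in 2 (8.33%), against 2.75%, and the homeodomain site TAATTA in 2 (8.33%), against 4.53%. The downstream Hoxd11 window held both of these inside its interval, 73 and 87 bases before the start. For the other motifs the 5 overlapped Hox windows were also set beside the CpG-rich windows with an interval. CCAAT was in 3 against 38.7%, GGGCGG in 3 against 79.1%, and TATAAA in 0 against 4.35%. TGATTNAT was in 1 against 0.684%, and TAATTA in 1 against 1.22%. No match overlapped a match of another motif in the Hox windows, and the E-box was singled out after the 6 motifs had been counted.

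Whole spans and gene ends were counted next, for all 39 genes. An interval overlapped the span of 14 of 39 Hox genes (35.9%, exact 95% interval 21.2 to 52.8), against 69.1% of protein-coding genes and 68.5% of the other protein-coding genes whose span is no shorter or longer than those of Hox genes. Within 1 kb of either end of the span an interval was found for 13 of 39 (33.3%, 19.1 to 50.2), against 61.5% of protein-coding genes and 63.7% of those with spans in the Hox range. With windows of 500 bp it was 10 of 39, against 56% of protein-coding genes, and with 5 kb 30 of 39, against 76.8%. Because the choice of genes was made with results of these data known, these shares are given as counts with no test. Hox genes are short, with a median span of 3.74 kb against 17.2 kb, and length moved with the span count. Among genes under 3 kb the share with an interval in the span was 3 of 14 for Hox (21.4%) and 20.5% for other protein-coding genes. From 3 to 5 kb it was 2 of 10 (20%) against 47.3%, from 5 to 12 kb 5 of 10 (50%) against 62.5%, and from 12 to 50 kb 4 of 5 (80%) against 81.2%. The 14 Hox spans compare with 17.9 of 39, and the 13 Hox genes marked at an end with 18.8 of 39, which the shares of other genes in these length bins add up to. The bin under 3 kb holds many chemoreceptor genes. Without chemoreceptor, Gm-numbered and Rik genes the span shares of the bins, from the shortest, were 33.9%, 50.8%, 66.5% and 84.4%. For ends they were 44.6%, 58.5%, 65.5% and 73.1%. These exceed the shares of all other genes in each bin. The sums by length bin here and below use all other genes and would be higher with the trimmed shares.

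The clusters differed widely in how many intervals they held. In all, the 4 clusters held 32 intervals over 492.1 kb, or 65 per Mb (exact Poisson 95% interval 44.5 to 91.8), against 45.5 per Mb over the chromosomes. Poisson and binomial bounds cover counting error only. They treat intervals and genes as independent, so they may be too narrow where intervals lie in groups. Hoxd held 14 in 96.9 kb on chromosome 2 (144 per Mb, 79 to 242), and Hoxa 9 in 105.5 kb on chromosome 6 (85.3 per Mb, 39 to 162). Hoxb held 6 in 173.9 kb on chromosome 11 (34.5 per Mb, 12.7 to 75.1), and Hoxc 3 in 115.7 kb on chromosome 15 (25.9 per Mb, 5.35 to 75.8). Of all non-overlapping stretches of the genome with the length of Hoxd, 2.24% held at least 14 intervals and the median was 4. At the length of Hoxa 17.6% held at least 9, at that of Hoxb 60.8% at least 6, and at that of Hoxc 69.5% at least 3. These stretches, and the 45.5 per Mb, cover whole chromosomes and were not matched for gene density. The clusters hold 39 protein-coding genes in 492.1 kb, and the chromosomes 21887 in 2655188 kb. The Poisson intervals of Hoxa, Hoxb and Hoxc overlap each other and contain 45.5 per Mb, and that of Hoxd lies above it, although it overlaps that of Hoxa. An interval overlapped 7 of 9 spans in Hoxd, 4 of 11 in Hoxa, 2 of 10 in Hoxb and 1 of 9 in Hoxc, against 69.1% of protein-coding genes. The shares of other genes in the length bins add up to 4.25 spans in Hoxd, 4.35 in Hoxa, 4.45 in Hoxb and 4.85 in Hoxc, so the Hoxa count was near its sum. At gene ends 5 of 9 Hoxd, 4 of 11 Hoxa, 2 of 10 Hoxb and 2 of 9 Hoxc genes had an interval, against 61.5%, and the sums were 4.43, 4.83, 4.7 and 4.85 in the same order. Of the 32 intervals, 20 overlapped a Hox gene and 12 lay between Hox genes.

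**Figure D2:**
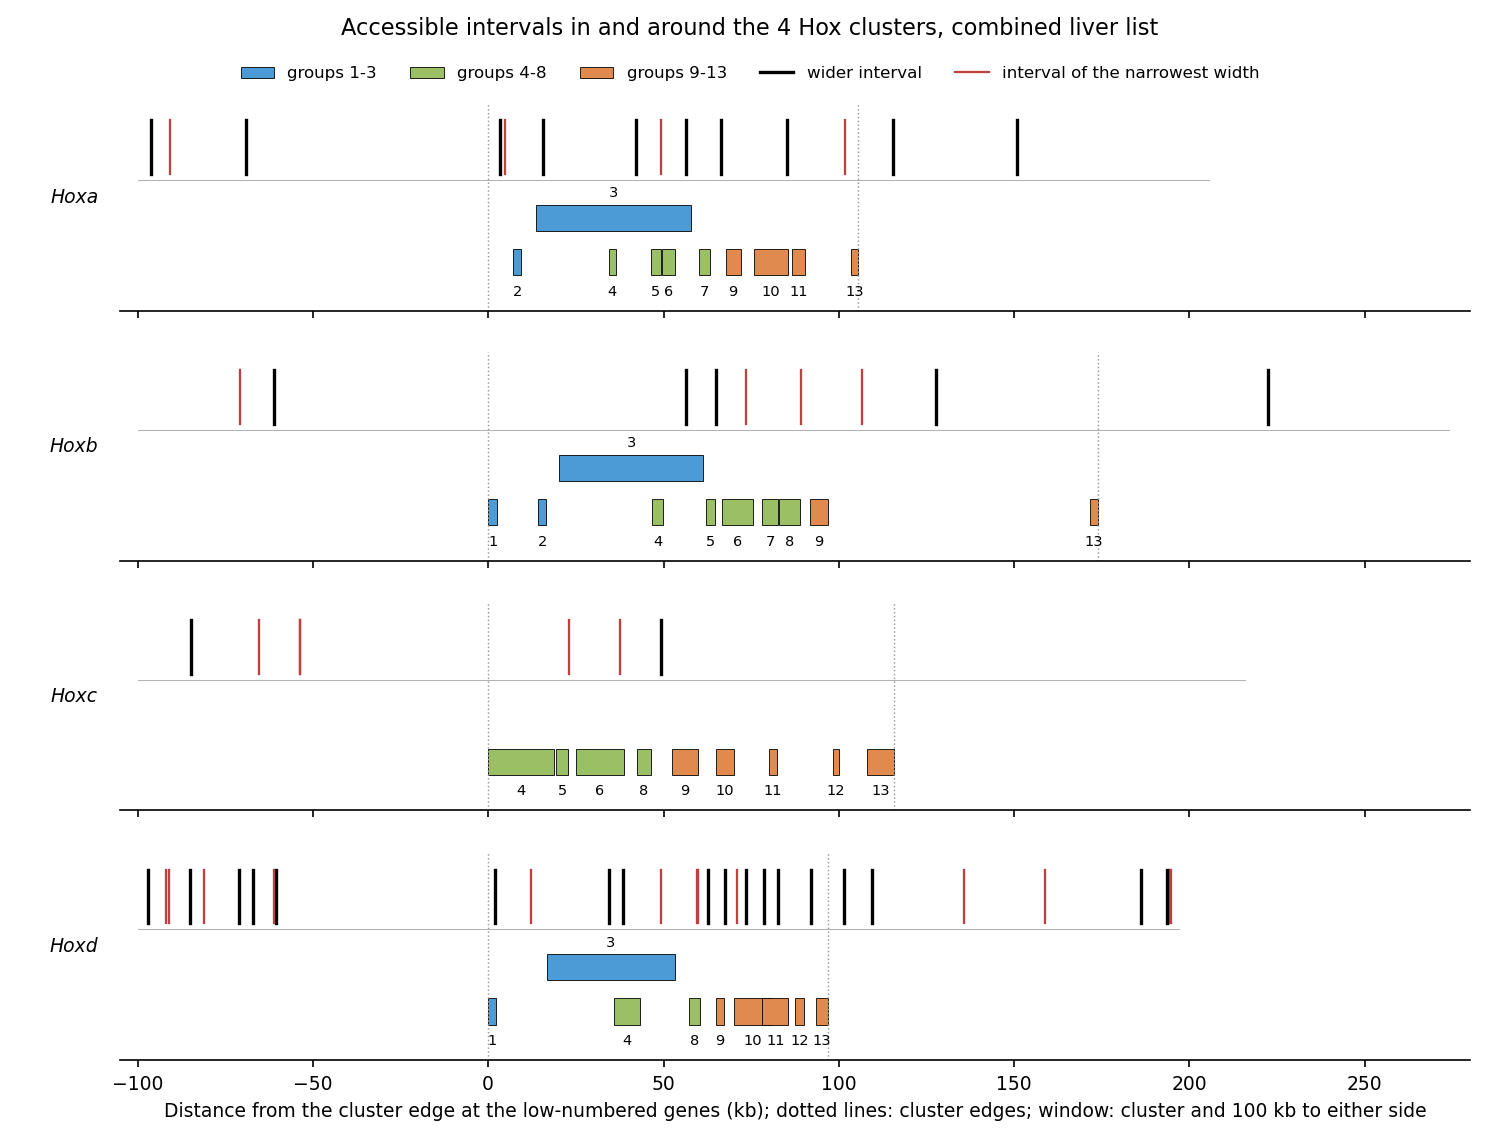
Maps of the 4 clusters drawn from the edge at the low-numbered genes, with 100 kb to either side (kb), boxes for the spans of the genes reported here labelled by paralog group and coloured by class, and ticks for intervals. Hoxd holds 14 ticks between its dotted edges, and in Hoxc the 3 ticks lie beside groups 5 to 9.

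In Hoxd, the 4 neighbouring genes from Hoxd8 to Hoxd11 each had an interval in the span and at an end. All are plus-strand genes. The end call was at the lower end for Hoxd8 and Hoxd9. For Hoxd10 and Hoxd11 it was at the upper end alone, the far end of the span. Hoxd10, which patterns the hindlimb motor neurons, had 3 intervals in its span, at chr2:74686343-74686582, chr2:74691650-74691859 and chr2:74694126-74694326. The first of these also lies in Hoxd11, whose span overlaps that of Hoxd10, and Hoxd11 had a second of 255 bp at chr2:74682221-74682475. Hoxd9 had 1 of 271 bp at chr2:74697606-74697876. Hoxd8 had 2 of the narrowest width at chr2:74705182-74705382 and chr2:74705455-74705655, inside the gene. Hoxd3 had 3 in a span of 36.3 kb, and 1 of them, at chr2:74726612-74726833, also lies in Hoxd4 and 475 bp from the microRNA gene Mir10b. Hoxd1 had 1 of 289 bp, the widest interval of the 4 clusters, at chr2:74762919-74763207. Hoxd12 and Hoxd13, genes of digits and genitalia, had none in the span, and the interval nearest to both, chr2:74673067-74673282, lay between them, 1731 bp from Hoxd12 and 1464 bp from Hoxd13.

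In Hoxa the intervals were spread over the cluster. Hoxa3, needed for thymus and parathyroid, had 4 in a span of 44 kb that also contains the spans of Hoxa4, Hoxa5 and Hoxa6, and 1 of the 4 is the Hoxa5 interval at chr6:52204474-52204674. That interval lies 184 bp from the lower end of Hoxa6, so the call of Hoxa6 at an end concerns the far end of a minus-strand gene. Hoxa10, which acts in the uterus and the hindlimb, had 1 of 223 bp at chr6:52240440-52240662, centred 303 bp past its upstream start site. Hoxa2, Hoxa4, Hoxa7, Hoxa9, Hoxa11 and Hoxa13 had none in the span or at an end. Among them Hoxa9 was nearest to an interval, at 1155 bp, and Hoxa4 farthest, at 5648 bp.

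Hoxb and Hoxc had intervals in their middle, and the long stretches without any ran out past a cluster edge. The longest stretch also ran past an edge in Hoxa (72.3 kb) and Hoxd (62.5 kb), where it held 0 whole Hox genes. Between intervals inside the cluster, with such edge stretches left out, the longest space was 21134 bp in Hoxb and 14190 bp in Hoxc. It was 26378 bp in Hoxa and 22089 bp in Hoxd. Hoxb6 had 1 of the narrowest width at chr11:96294625-96294825, and Hoxb3 had 1 of 203 bp at chr11:96311613-96311815 in a span of 40.8 kb. Hoxb5 and Hoxb8 had none in the span but 1 each outside the lower end, 152 bp from Hoxb5 at chr11:96303141-96303360 and 348 bp from Hoxb8 at chr11:96278853-96279053. Of the Hoxb genes with neither, Hoxb9 was the nearest to an interval (2258 bp) and Hoxb1 the farthest (53931 bp). Hoxb4, Hoxb2 and Hoxb1 lay whole in a stretch of 117 kb with no interval, which ended outside the cluster, beyond Hoxb1. In the wide space between Hoxb9 and Hoxb13, a gene of the prostate, 2 intervals were found, and Hoxb13 was 43697 bp from the nearer one. From Hoxb1 to Hoxb9 the count was 4 in 96.9 kb (41.3 per Mb, 11.2 to 106).

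Hoxc6 had 1 of the narrowest width at chr15:102999197-102999397, and Hoxc5 had 1 of that width 220 bp outside its lower end at chr15:103013588-103013788. The third Hoxc interval, of 283 bp at chr15:102987468-102987750, lay between Hoxc9 and Hoxc8, 3024 bp from Hoxc9 and 2789 bp from Hoxc8. All of Hoxc13, Hoxc12, Hoxc11, Hoxc10 and Hoxc9 lay in a stretch of 202 kb without an interval, and 0.615% of the spaces between neighbouring intervals of the whole list were longer. Most of this stretch lay outside the cluster, beyond Hoxc13. Hoxc13, a gene of hair and nail, was 58654 bp from the nearest interval, the farthest of the 39, and Hoxc8 was the nearest of the Hoxc genes with neither call. Of the 39 genes 7 had no interval in the span and 10 kb to either side, against 16.1% of protein-coding genes, which are longer. These were Hoxb1, Hoxb2, Hoxb13, Hoxc10, Hoxc11, Hoxc12 and Hoxc13. The median was 2 intervals per Hox gene with these flanks, against 3 for all protein-coding genes, and neighbouring Hox genes share many of them.

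**Figure D3:**
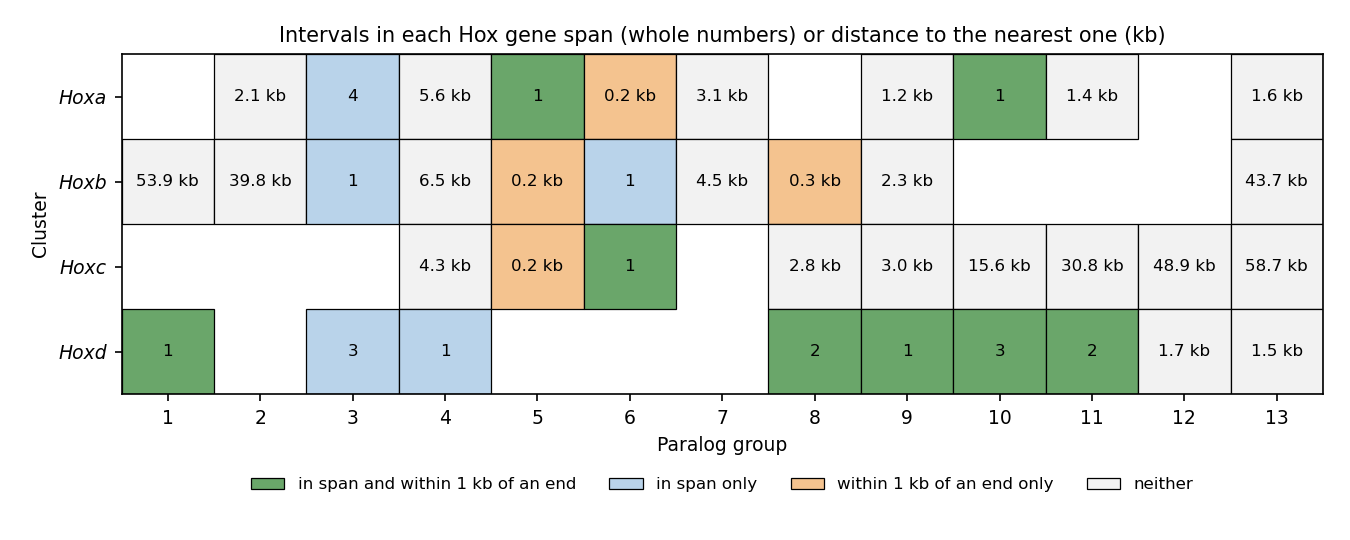
Hox genes by cluster and paralog group, where blank cells are positions with no gene or not reported here, a whole number is the count of intervals in the span and a distance in kb is that to the nearest interval for genes without one. Group 5 has an interval at an end in 3 of 3 clusters, and groups 2, 7, 12 and 13 have grey cells throughout.

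Anterior, central and posterior genes were compared next, since neighbours in these classes act in the same body region. An interval overlapped the span of 5 of 8 anterior genes (62.5%, exact 95% interval 24.5 to 91.5), 5 of 15 central genes (33.3%, 11.8 to 61.6) and 4 of 16 posterior genes (25%, 7.27 to 52.4). The anterior share minus the posterior share was 37.5 percentage points, with a 95% interval of -2.74 to 65.5 that includes 0. That interval treats the genes as independent, although neighbouring Hox genes share intervals, so it describes the counts and is not a test. At gene ends the order was different, with 2 of 8 anterior (25%), 7 of 15 central (46.7%) and 4 of 16 posterior genes (25%), against 61.5% of protein-coding genes. The 3 anterior genes of group 3, Hoxa3, Hoxb3 and Hoxd3, span 36.3 to 44 kb, and each had an interval in the span and none at an end. Without them the difference in spans was 15 points, from 2 of 5 anterior genes against 4 of 16. The shares of other protein-coding genes in the same length bins add up to 3.73 of 8 anterior, 7.15 of 15 central and 7.02 of 16 posterior spans. For ends they add up to 3.73 of 8 anterior, 7.56 of 15 central and 7.53 of 16 posterior genes, so the central count was near its sum. Each of the 32 intervals was also given to its nearest Hox gene, which put 10 at anterior, 10 at central and 12 at posterior genes. All 4 posterior genes with an interval in the span or at an end were Hoxa10, Hoxd9, Hoxd10 and Hoxd11, so none came from Hoxb or Hoxc.

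Across clusters, the paralogs of 1 group did not always share their state. Group 5 was the 1 group of which every member had an interval at an end, and each of these lay within 220 bp of the upper end of Hoxa5 or the lower end of Hoxb5 and Hoxc5. In group 1 Hoxd1 had an interval at an end and Hoxb1 had none, and in group 10 Hoxa10 and Hoxd10 had one and Hoxc10 had none. In group 8 Hoxb8 and Hoxd8 had one and Hoxc8 had none, and in group 6 Hoxa6 and Hoxc6 had one and Hoxb6 had none. Groups 9 and 11 were marked at an end in Hoxd alone. None of the 4 members of group 13 had an interval in the span or at an end, nor had any of the 2 members each of groups 2, 7 and 12. Group 4 had none at an end in 4 members, and Hoxd4 alone had one in the span. With 2 to 4 members a group these counts carry wide error, for example a 95% interval of 0 to 60.2% for 0 of 4.

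The surroundings of the clusters followed the interior only in part. The 100 kb to either side of Hoxd held 17 intervals (85 per Mb, exact Poisson 95% interval 49.5 to 136), against 5 around Hoxa (25 per Mb, 8.12 to 58.3), 3 around Hoxb (15 per Mb, 3.09 to 43.8) and 4 around Hoxc (20 per Mb, 5.45 to 51.2). This order depended on the width of the flanks, since flanks of 200 kb held 24 around Hoxd, 11 around Hoxa, 5 around Hoxb and 22 around Hoxc. Beyond Hoxd1 all 9 lay in Mtx2, a gene of the mitochondrial outer membrane. Beyond Hoxd13 there were 8, of which 4 lay in Lnpk, a gene of endoplasmic reticulum junctions, and 1 in Evx2, a homeobox relative of the Hox genes. The nearest 62.5 kb beyond the Hoxd1 interval, up to Mtx2, held none. Around Hoxa the neighbour Evx1 had none, around Hoxb Ttll6, a tubulin-modifying enzyme gene, had 1 and Calcoco2, an autophagy receptor gene, had none, and the part of Skap1, a T cell adaptor gene, in the window had none. No protein-coding gene other than Hox lay in the Hoxc window, and no interval was found in the 100 kb beyond Hoxc13.

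Noncoding genes inside the clusters were read in the same way. Of 25 lncRNA genes in the clusters 8 had an interval in the span (4 of them in Hoxd), against 48.7% of 12727 lncRNA genes. These included Hoxaas3 in Hoxa with 2, Hoxb5os in Hoxb with 2, and Haglr and Hoxd3os1 in Hoxd with 1 each. Hotair, an lncRNA gene of Hoxc reported to bind Polycomb complexes in human cells, had none and was 39522 bp from the nearest interval. These transcripts overlap or neighbour Hox genes and share their intervals. The lncRNA shares were not adjusted for span length. None of the 6 microRNA genes was overlapped, and the nearest was Mir10b at 475 bp, followed by Mir615 at 1122 bp and Mir196a-1 at 3319 bp.

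Genes that encode partners and regulators of HOX proteins are listed for comparison. Most of them had an interval at an end, as had 61.5% of protein-coding genes. The counts were 8 of 9 TALE cofactor genes (88.9%, exact 95% interval 51.8 to 99.7) and 19 of 21 Polycomb group genes (90.5%, 69.6 to 98.8). They were 8 of 10 for Trithorax group and related genes (80%, 44.4 to 97.5) and 8 of 12 for retinoic acid signalling genes (66.7%, 34.9 to 90.1). Only the Polycomb interval lies wholly above 61.5%. The Hox relatives of the ParaHox and Evx families had it in 3 of 8 (37.5%), and the other developmental homeobox genes in 17 of 40 (42.5%, 27 to 59.1). The medians with 10 kb to either side were 2 for Hox genes, beside 7 for TALE cofactors, 4 for Polycomb, 5 for Trithorax, 4.5 for retinoic acid, 1.5 for ParaHox and Evx and 2 for other homeobox genes. Meis1, which encodes a DNA-binding partner of HOX proteins, had 21 and Meis2 20. Jarid2, a subunit of Polycomb complex PRC2, had 15, Phc2 13, and Rnf2, the ubiquitin ligase of PRC1, 8. Kdm6a, a demethylase that removes the Polycomb mark, had 10, Dpy30 7 and Ash2l 6. The retinoic acid receptor gene Rarb had 31, Rxra 14 and Rara 12, and Rarb spans 651 kb. Cdx2 had 4, Cdx4 3 and Cdx1 2, and Pdx1 had none. Pax3 had 9, Alx4 8 and Pax6 8, and Dlx4 and Pax7 had none. These counts are not adjusted for gene length.

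**Figure D4:**
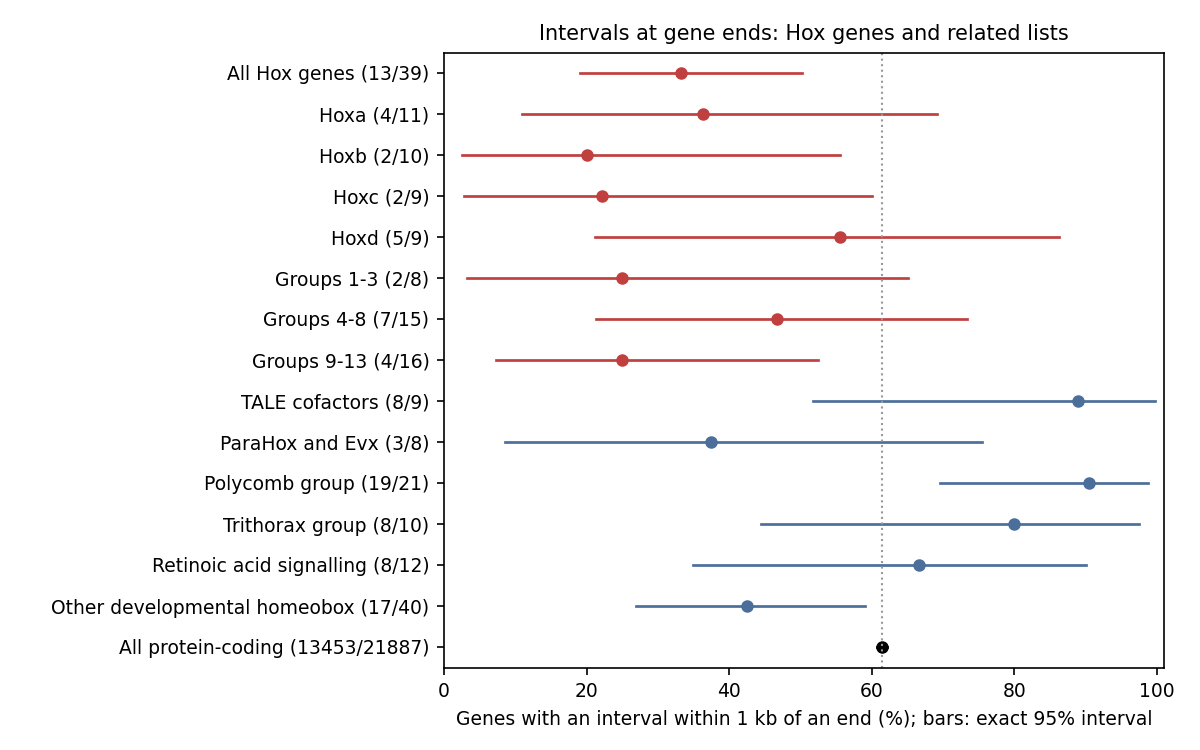
Share of genes with an interval within 1 kb of an end (%), with exact 95% intervals, for the Hox genes, their clusters and classes (red), related lists (blue) and all protein-coding genes (black, dotted line). All Hox genes together stand at 33.3% and all protein-coding genes at 61.5%.

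Intervals in the clusters had widths like those of the whole list. They were up to 289 bp wide with a median of 210 bp, and 13 of 32 (40.6%, exact 95% interval 23.7 to 59.4) had the narrowest width of the list, against 46.2% of all intervals. The number at ends depended on the narrowest ones, since 5 of 39 Hox genes kept an interval at an end when intervals of the narrowest width were left out, against 51.7% of protein-coding genes under the same rule. For spans 10 of 39 kept one, against 60.3%. The tissue label was set beside markers fixed with the lists. A gene end was marked in 11 of 12 hepatocyte genes, 6 of 8 stellate cell genes, 6 of 8 cholangiocyte genes, 3 of 8 endothelial genes, 3 of 8 macrophage genes, 3 of 8 lymphocyte genes and 2 of 8 kidney epithelium genes, against 61.5% of protein-coding genes. The span had an interval in 9 of 12 hepatocyte, 6 of 8 stellate cell, 6 of 8 cholangiocyte, 8 of 8 endothelial, 3 of 8 macrophage, 3 of 8 lymphocyte and 5 of 8 kidney epithelium genes, against 69.1%, so the order of the lists was not the same by both counts. The part of any of these cell types in the Hox intervals was not tested.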

How the data were processed

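The authors deposited 1 list of interval positions in 3 columns (chromosome, start, end), with no score or signal. The submitters' processing notes name fastp, Bowtie2, HOMER and mm10. The sources used here do not give versions, read filters, a shift of read ends, the peak threshold or how libraries were combined. The labels also name an antibody, which ATAC-seq does not use.

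Starts were made 1-based. Genes, promoter windows and strands came from RefSeq tables of GRCm38.p6 (mm10). An overlap of at least 1 bp counted. Gene ends had windows of 1 kb. Shares have exact Clopper-Pearson and densities exact Poisson 95% intervals. The difference of shares has a Newcombe interval. Python 3.11.15, pandas 2.3.3 and scipy 1.17.1 were used. Calls at gene ends were tested on planted positions, and overlap counts against a direct count on a sample of the list. Genes and intervals are not replicates, so no p-values are given. The Hox members, the lists and the alternatives were chosen with earlier results of these data known. Each list gives its 3 leading genes by interval count and at most 2 that had none. Named too is every Hox gene with an interval in the span or at an end. Of the Hox genes without one, the nearest to and farthest from an interval in each cluster are named, and others were named after their values were seen. A few members entered the counts but their own values are not reported here.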

Additional observations from a re-analysis of the deposited data

How the results depend on the processing

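Of 55 alternative values, 41 were counts within 1.5 times the value given or anterior minus posterior differences inside the interval given. That interval, -2.74 to 65.5 points, is wide and includes 0, so a difference of 0 was also scored as unchanged. A count cannot reverse, and no difference changed sign. Without intervals of the narrowest width, 5 Hox genes had an interval at an end, and the counts inside were 3 in Hoxb, 1 in Hoxc and 9 in Hoxd, with 1 around Hoxc and 9 around Hoxd. With end windows of 5 kb, 30 Hox genes had one, against 76.8% of protein-coding genes. Flanks of 50 kb held 2 intervals around Hoxa, 1 around Hoxb, 0 around Hoxc and 3 around Hoxd, and flanks of 200 kb held 11, 5, 22 and 24 around Hoxa, Hoxb, Hoxc and Hoxd. The size of these changes differed among the clusters, and their causes were not tested. Hoxd held the most intervals inside under each alternative run. The anterior minus posterior difference ranged from 0 at gene ends to 43.8 points with interval centres. Giving shared intervals to the shortest gene, leaving out Hoxb13 or group 3, and trimming the background were chosen after seeing the data. No paired analysis was possible because the list holds no values per library, and for the same reason the strain comparison and the fits that leave out a replicate were not run. The unknown depth limits what absence of an interval can show.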
